A study of Mus musculus with 8 samples.

Results

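The Bcl2 family holds the proteins that decide whether a cell opens its outer mitochondrial membrane and dies by apoptosis. The effectors Bax and Bak1 form the pore, the anti-apoptotic members Bcl2, Bcl2l1 (Bcl-xL) and Mcl1 hold them back, and the BH3-only members Bcl2l11 (Bim), Bid, Bad, Bbc3 (Puma) and Pmaip1 (Noxa) bind the anti-apoptotic proteins or switch the effectors on. Much of their control lies in protein cleavage, phosphorylation and turnover, which an RNA measurement does not see. In the cochlea, hair cells that are lost do not regenerate in the mature mammal, and this family is studied there for its part in hair cell death.

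These 10 genes were read from every probe set that the array annotation assigns to their symbols. That gave 29 of 45037 probe sets and 9 of 18193 genes. Bax had no probe set assigned to it alone in the annotation used and was not analysed here. Of the 9 genes, 8 passed the filter on low signals (a mean log2 signal of at least 5.274) and were tested. Pmaip1 lay under it.

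RNA was measured on 8 Affymetrix microarrays, 1 for each apical or basal segment of the organ of Corti (the band of hair cells and supporting cells that detects sound), taken from mice on postnatal day 16. All mice carried the Tg(Atoh1-cre)1Bfri transgene, whose Cre drives recombination in hair cells and in other cells that express Atoh1. Knockout mice had both Dicer1 alleles floxed (allele Dicer1tm1Bdh), genotype Atoh1-Cre;Dicer1(flox/flox), and are called cKO. Littermate controls had a single floxed allele, genotype Atoh1-Cre;Dicer1(flox/wt), so that Cre and a floxed allele were shared by all groups. Each of the 4 groups (control apex, cKO apex, control base and cKO base) held 2 samples, each from both cochleae of a single mouse. The apical and basal samples of 1 genotype and number were taken as 1 mouse, which gives 4 presumed mice. The whole strip was lysed, so hair cells gave only a part of the RNA, and fewer cells of a type cannot be told apart from less RNA per cell.

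Dicer1 encodes the enzyme that cuts microRNA precursors into mature microRNAs. Among its products are the microRNAs best known for repressing this family: miR-17, miR-20a and miR-92a on Bcl2l11 (known in mouse), miR-15a and miR-16 on Bcl2 (known in human leukaemia cells) and miR-29b on Mcl1 (known in human cells). They are shown to give the sequences that a Dicer1-deficient cell can no longer make. Mature microRNAs were not measured on these arrays. The sequences are RefSeq's, build GRCm38.p6, 5′ to 3′, with the seed (bases 2 to 8, which pair with the target) in capitals. miR-17 and miR-20a share a seed, as do miR-15a and miR-16.
mmu-miR-17-5p: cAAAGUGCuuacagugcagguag
mmu-miR-20a-5p: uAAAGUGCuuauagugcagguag
mmu-miR-92a-3p: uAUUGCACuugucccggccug
mmu-miR-15a-5p: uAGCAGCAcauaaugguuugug
mmu-miR-16-5p: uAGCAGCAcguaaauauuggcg
mmu-miR-29b-3p: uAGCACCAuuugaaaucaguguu

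Values are log2 of the deposited signal, a brightness per probe set that has no common scale between probe sets, so no gene's level is set against another's. Median signals ran from 67.3 to 100 per array. Across genes, the replicate correlation was lowest in control base (0.9279) and between 0.9615 and 0.9779 in the other groups. Control base replicate 1 stood apart: its summed signal of 10 genes of the stria vascularis, the ion-pumping tissue beside the organ of Corti, was 4993, against 29890 to 34242 in the other basal samples and 6928 to 10958 in the apical ones. Xist, the RNA that coats the inactive X chromosome of females, was at 12.54 (apex) and 12.39 (base) in the first control mouse, and the other samples did not exceed 8.23. By this RNA only the first control mouse appeared female, so sex did not appear balanced between the genotypes. The part of sex in the genotype differences was not tested. Hair cell transcripts were measured: 15 of 18 hair cell markers had a probe set, and of these Atoh1 and Slc26a5 lay under the filter. The summed signal of the 15 was 14750 to 16880 in the apical samples. In control base replicate 1 it was 15224, within the apical range, and in the other basal samples it was lower, at 7268 to 10481. Dicer1 itself was at 9.57 and 9.19 in control apex, 9.41 and 9.17 in cKO apex, 9.37 and 9.04 in control base, and 9.30 and 9.06 in cKO base. Its genotype difference, cKO less control, was -0.09 ± 0.22 (log2, SE) apically and -0.02 ± 0.22 basally. Where the probes lie with respect to the floxed exons is unknown here, so these values do not check recombination.

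No Bcl2 family gene passed the test between genotypes in either region, and the data describe small or uncertain differences. In the apex 5 of the 8 tested genes were higher in the cKO and 3 lower, with a median log2 difference of 0.09 beside 0.00 over all genes. That tally did not hold under other settings: Mcl1 turned with quantile normalization (-0.015) and Bcl2 with centring on the 75th percentile (0.009). With the mean of each gene's probe sets Bcl2l1 (-1.398), Mcl1 (-0.058) and Bcl2l11 (-0.05) became lower and Bcl2 (0.047) and Bad (0.004) higher. In the base 7 were higher and 1 lower, with a median of 0.26 beside 0.00. Here Bcl2l1 turned with the mean of probe sets (-0.036). Leaving out a basal sample turned Bcl2 (-0.21 without control base replicate 2), Bak1 (-0.32 without control base replicate 1 and -0.027 without cKO base replicate 1) and Bbc3 (0.189 without control base replicate 2 and 0.119 without cKO base replicate 1). The test was limma's, adjusted by Benjamini-Hochberg over 13221 genes. It called 0 of 8 members and 0% of all genes in each region. At an unadjusted p under 0.05 limma gave 0 members in the apex, where 2.19% of all genes reached it, and 1 member, Bcl2l11, in the base, where 3.12% did.

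**Figure D1:**
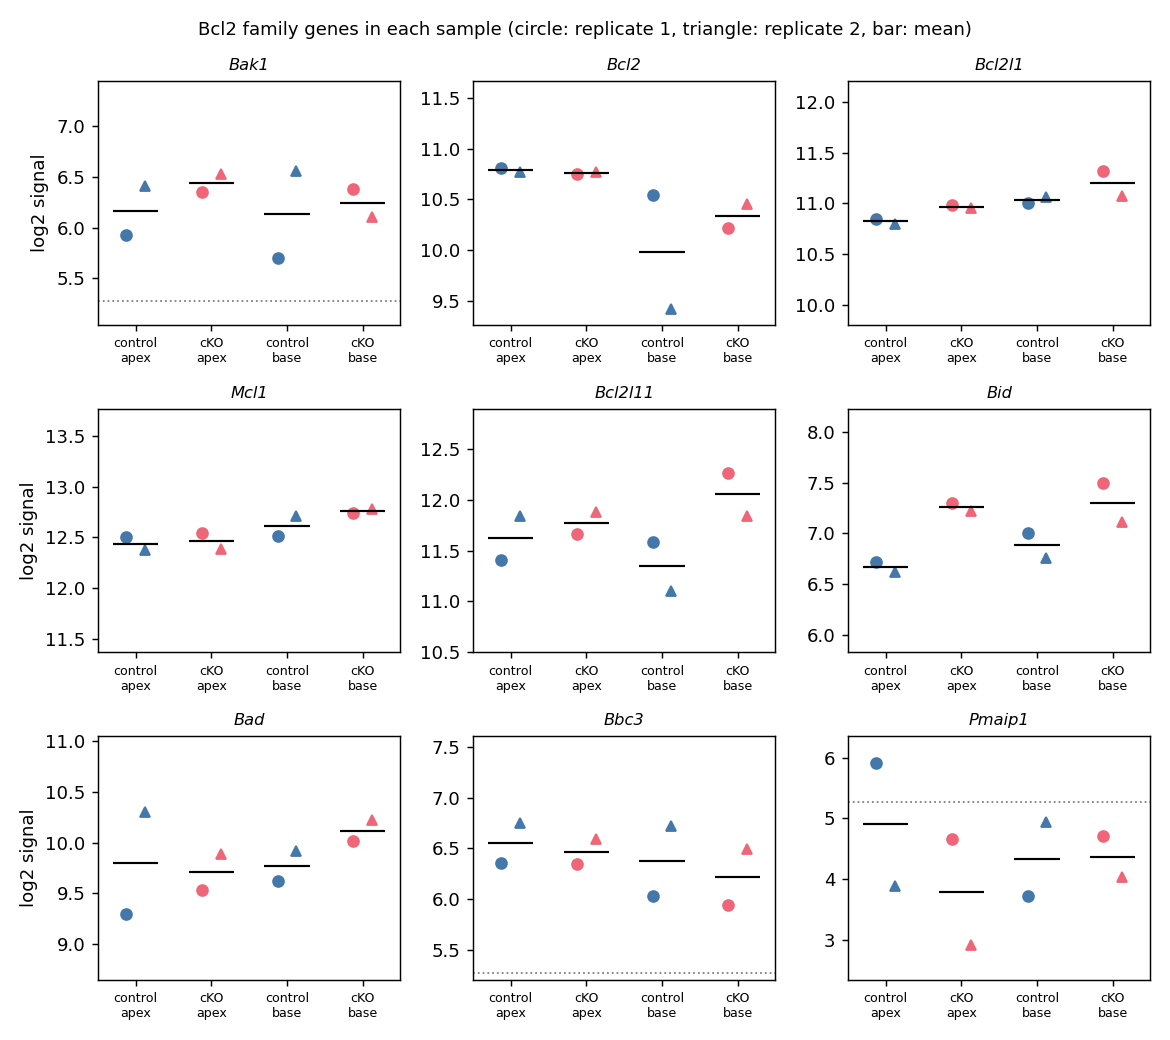
Log2 signal of the 9 measured genes in each of the 8 samples, by group, from the probe set read for each gene. Blue marks controls and red cKO, circles replicate 1 and triangles replicate 2, bars the mean of 2 samples, and the dotted line the filter at 5.274. The cKO samples of Bid lie above all controls, Bcl2 is lower in the base than in the apex, and Pmaip1 lies mostly under the filter.

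Among the effectors, Bak1 spans the outer mitochondrial membrane and forms the pore once it is activated. Its signals were 5.93 and 6.41 in control apex, 6.35 and 6.53 in cKO apex, 5.70 and 6.56 in control base, and 6.38 and 6.11 in cKO base. The genotypes overlapped in both regions, and the spread of the control base pair (SD 0.61, n = 2) exceeded every difference between groups. The genotype difference (cKO less control, log2, SE) was 0.27 ± 0.39 apically and 0.11 ± 0.39 basally. The 95% confidence interval in the apex, from -0.64 to 1.19, leaves room for a change of up to 2.28-fold. The second Bak1 probe set, 1425716_s_at, lay under the filter (mean 3.27) and is not read here.

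Of the anti-apoptotic genes, Bcl2 and Bcl2l1 guard the mitochondrial membrane and Mcl1 is a short-lived protein that many cells need to survive. Bcl2l1 was at 10.85 and 10.79 in control apex, 10.98 and 10.95 in cKO apex, 11.01 and 11.06 in control base, and 11.32 and 11.07 in cKO base. Both cKO samples lay above both controls in each region, by small amounts: 0.15 ± 0.15 (log2, SE) apically and 0.16 ± 0.15 basally. Groups that do not overlap, with the cKO higher, were found for 15% of all genes in the apex and 13.1% in the base. For the probe set read, the 95% intervals, -0.20 to 0.49 and -0.19 to 0.51, hold no change above 1.42-fold. A second probe set, 1420887_a_at, gave differences of the other sign, -0.28 (apex) and -0.48 (base, 95% interval from -1.184 to 0.235). These groups did not overlap either, as those of 16.2% and 15.6% of all genes with a lower cKO, so the direction between genotypes depends on the probe set.

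As read from its brightest probe set, Mcl1 gave the narrowest intervals of the family. Its signals were 12.50 and 12.38 in control apex, 12.54 and 12.39 in cKO apex, 12.51 and 12.71 in control base, and 12.74 and 12.78 in cKO base. The genotype difference (log2, SE) was 0.03 ± 0.13 apically and 0.15 ± 0.13 basally, with 95% intervals of -0.28 to 0.33 and -0.16 to 0.45. For the probe set read, no change above 1.37-fold is held by either. Probe set 1416881_at left more room, with intervals of -1.004 to 0.646 in the apex and -0.654 to 0.995 in the base. Over the 6 Mcl1 probe sets the difference ran from -0.18 to 0.03 in the apex and from 0.01 to 0.17 in the base. Some of these (those ending in x_at) hold probes that can also match other transcripts, the one read for the gene among them.

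Bcl2 was nearly level in the apex, at 10.81 and 10.77 in controls and 10.75 and 10.77 in the cKO. In the base it was at 10.54 and 9.42 in controls and at 10.21 and 10.45 in the cKO, which lie between the controls. Its difference (log2, SE) came to -0.03 ± 0.33 apically and 0.35 ± 0.33 basally. The basal value turned on the control sample kept: it was 0.91 without control base replicate 1 and -0.21 without control base replicate 2. Over the 5 Bcl2 probe sets the basal difference ran from -0.37 to 0.40, with 3 higher and 2 lower. The genotypes did not overlap in the 2 lower ones, as in 15.6% of all genes with a lower cKO. They overlapped in all 3 higher ones, the probe set read for the gene among them.

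The BH3-only gene with the largest genotype difference in the base was Bcl2l11, which encodes Bim, a potent activator of apoptosis that binds every anti-apoptotic member. It was at 11.58 and 11.11 in control base and 12.27 and 11.84 in cKO base. In the apex it was at 11.40 and 11.84 in controls and 11.67 and 11.88 in the cKO. The basal groups did not overlap, and 5 of the 8 tested members were higher without overlap in that comparison, where 13.1% of all genes were. These were Bcl2l1, Mcl1, Bcl2l11, Bid and Bad, each read from its brightest probe set. Other probe sets did not all bear this out. Bcl2l1, Bad and Bcl2l11 each had 1 that was lower without overlap, and of 6 Mcl1 probe sets only 1 was free of overlap. The apical groups of Bcl2l11 overlapped.

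In the base the Bcl2l11 difference was 0.71 ± 0.24 (log2, SE), a 1.64-fold higher signal in the cKO with a 95% interval from 1.11-fold to 2.42-fold. limma's unadjusted p was 0.0197 and its adjusted p 1. Leaving out each sample in turn gave 0.48 to 0.95, with a smallest adjusted p of 0.279. In the apex the difference was 0.15 ± 0.24 (log2, SE). Taking the mean of apex and base of each presumed mouse, with 2 mice per genotype, gave 0.43 ± 0.11 (log2, SE; unadjusted p = 0.0122, adjusted p = 0.999, limma). In that comparison 1 of 8 members and 2.41% of all genes reached an unadjusted p under 0.05, and 0% an adjusted one. Whether the genotype effect differed between base and apex was tested directly and was not shown to (0.56 ± 0.34, log2, SE, unadjusted p = 0.14, adjusted p = 1, limma). For that difference 0 of 8 members and 1.13% of all genes reached an unadjusted p under 0.05, and limma called 0% of them.

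The other Bcl2l11 probe sets did not all move alike. Of the 4 above the filter, 3 were higher in cKO base than in control base without overlap and 1 was lower without overlap, beside 13.1% and 15.6% of all genes. Probe set 1456006_at was at 4.50 and 4.50 in control base and at 5.62 and 5.91 in cKO base, a difference of 1.27 ± 0.41 (log2, SE; unadjusted p = 0.0156, adjusted p = 1, limma over all probe sets). Both control values lay under the filter's signal, so the size is not exact. Probe set 1435448_at was at 10.04 and 9.50 in controls and 10.21 and 10.06 in the cKO. Probe set 1435449_at went the other way, at 7.67 and 7.54 in controls and 7.23 and 7.50 in the cKO. These probe sets read 1 gene from the same RNA and are not replicates of each other.

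**Figure D2:**
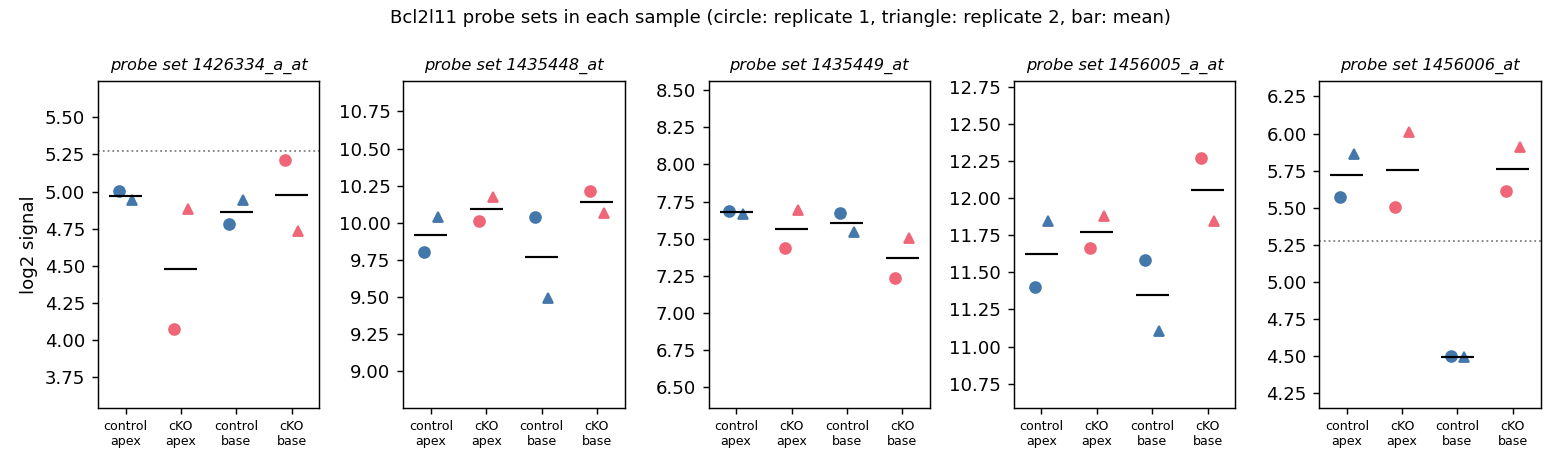
Log2 signal of the 5 Bcl2l11 probe sets in each sample, each panel spanning the same log2 range. Blue marks controls and red cKO, circles replicate 1 and triangles replicate 2, bars the mean of 2 samples, and the dotted line the filter at 5.274. In the base 1456005_a_at, 1456006_at and 1435448_at are higher in the cKO and 1435449_at is lower.

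Markers of other cells moved in the same basal samples. The summed signal of 14 neutrophil and other leukocyte markers was 7696 and 11966 in control base and 15202 and 15967 in cKO base, and all 13 tested members were higher in the cKO, 0 of them past limma's adjusted threshold and 7 at an unadjusted p under 0.05. Prtn3, a neutrophil granule protease, was at 6.21 and 6.61 in control base and 8.34 and 7.72 in cKO base. Ptprc, carried by nearly all white blood cells, was at 8.18 and 8.63 in controls and 8.64 and 9.10 in the cKO. In the same comparison 12 of 13 tested hair cell markers were lower in the cKO, 0 of them past limma's adjusted threshold and 8 at an unadjusted p under 0.05. Their summed signals overlapped, at 15224 and 7268 in controls and 10481 and 7396 in the cKO, with control base replicate 2 the lowest. Otof, a hair cell synapse gene, was at 8.94 and 8.18 in controls and 6.97 and 7.45 in the cKO. Erythroid markers (6 of 6 tested) and those of the stria vascularis (7 of 8) were higher in the basal cKO too, 0 of them past limma's adjusted threshold and 2 and 1 at an unadjusted p under 0.05. Control base replicate 1 was the lowest basal sample in both, and control base replicate 2 lay above a cKO sample in both: the stria sums were 4993 and 33954 in controls and 34242 and 29890 in the cKO, and the erythroid sums 731 and 2354 in controls and 2319 and 1698 in the cKO. The part of these cells in the Bcl2l11 difference was not tested.

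Bid, which caspase-8 cleaves to link death receptors to mitochondria, was the member that separated the genotypes across all samples. It was at 6.72 and 6.62 in control apex, 7.01 and 6.76 in control base, 7.30 and 7.22 in cKO apex, and 7.49 and 7.11 in cKO base. All 4 cKO samples lay above all 4 controls, and a higher cKO without overlap was found for 1.61% of all genes. The gap between the highest control (7.01) and the lowest cKO sample (7.11) was small beside the SD of 0.27 (n = 2) in cKO base.

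The genotype difference of Bid was 0.59 ± 0.26 (log2, SE) in the apex, a 1.51-fold difference with unadjusted p = 0.0574 and adjusted p = 1 in limma. It was 0.42 ± 0.26 in the base, and 0.51 ± 0.22 over both regions with the presumed mouse as the unit (unadjusted p = 0.0722, adjusted p = 0.999, limma). Leaving out single samples gave 0.54 to 0.64 in the apex, 0.23 to 0.61 in the base and 0.39 to 0.62 over both regions. The other 2 Bid probe sets lay under the filter, with means of 4.08 and 2.08, so they give no second reading. The leukocyte markers were higher in the cKO for 11 of 13 tested genes in the apex and 13 of 13 over both regions, 0 of them past limma's adjusted threshold and 2 and 6 at an unadjusted p under 0.05. Their part in the Bid difference was not tested.

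Bad, which growth factor signals hold inactive by phosphorylation, varied most within control apex, at 9.30 and 10.31. It was at 9.53 and 9.88 in cKO apex, 9.62 and 9.92 in control base, and 10.01 and 10.22 in cKO base. The cKO differed from controls by -0.09 ± 0.33 (log2, SE) apically and 0.35 ± 0.33 basally. With single samples left out these ran from -0.60 to 0.41, the last without control apex replicate 2, and from 0.20 to 0.50. The basal groups did not overlap, but the second Bad probe set, 1416583_at, gave -0.33 there, also without overlap.

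Bbc3, which p53 induces after DNA damage, was at 6.36 and 6.75 in control apex, 6.35 and 6.59 in cKO apex, 6.03 and 6.72 in control base, and 5.94 and 6.50 in cKO base. The genotypes overlapped in both regions. The difference (log2, SE) was -0.09 ± 0.38 apically and -0.16 ± 0.38 basally. Pmaip1, another p53-responsive gene, was at 5.92 and 3.89 in control apex, 4.66 and 2.91 in cKO apex, 3.73 and 4.94 in control base, and 4.70 and 4.04 in cKO base. All but 1 of these lay under the filter at 5.274, and no difference is drawn from them.

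**Figure D3:**
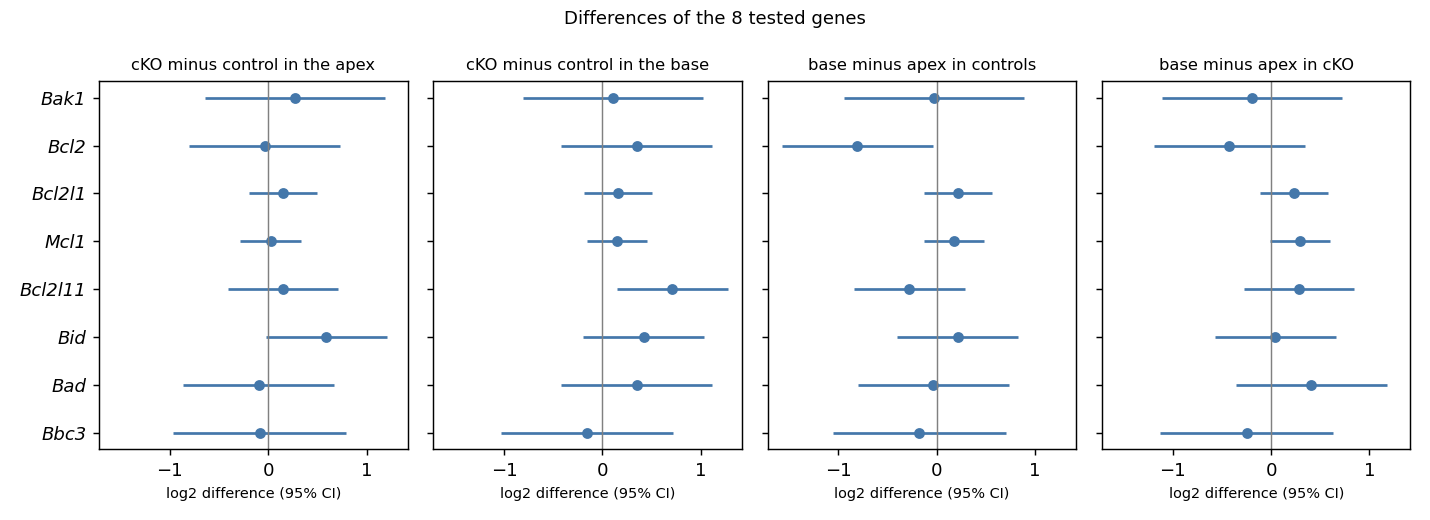
Log2 differences of the 8 tested genes between genotypes in each region and between regions in each genotype. Points are the limma estimates and lines their 95% confidence intervals. Bcl2l11 in the base and Bcl2 between regions of controls have intervals that leave out 0 before adjustment for the number of genes tested.

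Between the base and the apex, Bcl2 was the member with the largest difference, lower in the base in both genotypes. Base minus apex was -0.81 ± 0.33 (log2, SE) in controls, -0.43 ± 0.33 in the cKO and -0.62 ± 0.23 over both genotypes, the last a 1.53-fold lower signal with a 95% interval from 1.05-fold to 2.23-fold. The adjusted p of limma was 0.654 in controls, 0.707 in the cKO and 0.238 over both genotypes, so Bcl2 did not pass. Its unadjusted p were 0.041, 0.233 and 0.0305. All 4 basal samples, at 9.42 to 10.54, lay below all 4 apical samples, at 10.75 to 10.81. A lower base without overlap was found for 6.4% of all genes.

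The 5 Bcl2 probe sets, all above the filter by their means, gave the same direction in every presumed mouse. The base was lower in 20 of 20 readings (5 probe sets in 4 mice), with base minus apex from -1.39 to -0.14 in single readings. The 5 probe sets read 1 gene from the same RNA, so these readings are not 20 replicates. In control base replicate 2, 1440770_at (5.143) and 1443837_x_at (5.245) lay under the filter's signal. Probe set 1437122_at had the smallest p of the family's probe sets over both genotypes. It was at 8.71 and 8.82 in control apex, 8.70 and 8.84 in cKO apex, 8.52 and 8.38 in control base, and 7.93 and 8.23 in cKO base. Its difference was -0.50 ± 0.14 (log2, SE; unadjusted p = 0.0092, adjusted p = 0.173, limma over 23332 probe sets). For single genes, a base lower in all 4 presumed mice was found for 17% of those tested.

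**Figure D4:**
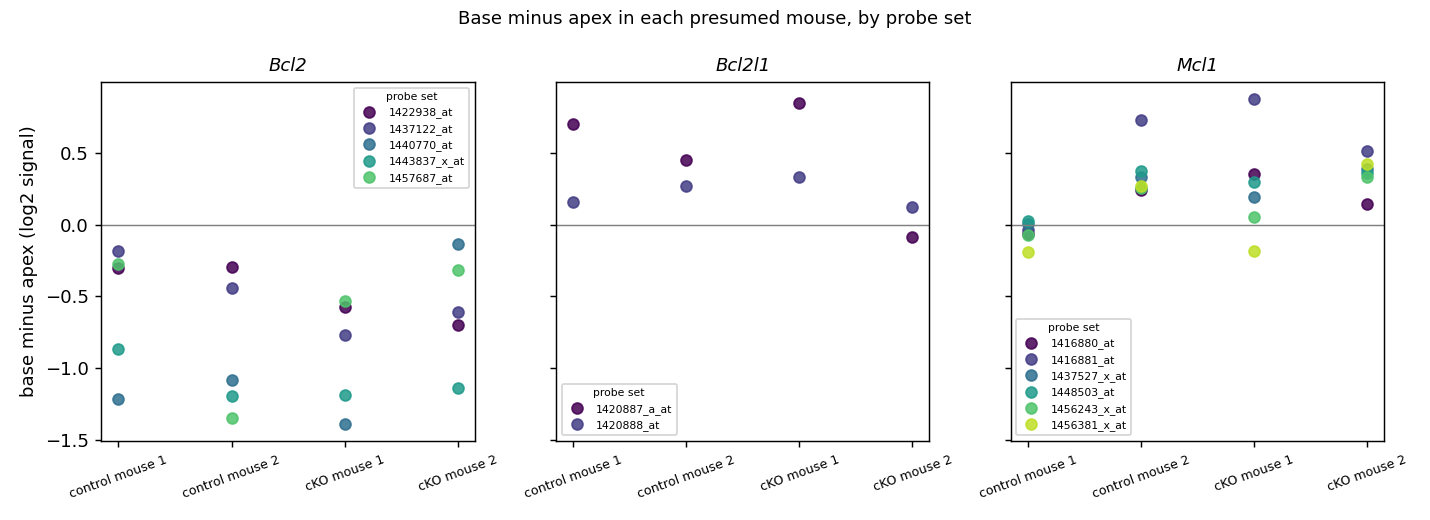
Base minus apex in log2 signal for each presumed mouse and each probe set above the filter of Bcl2, Bcl2l1 and Mcl1. Each point is 1 probe set in 1 mouse. All 20 Bcl2 points lie below 0, 7 of 8 Bcl2l1 points above it, and 19 of 24 Mcl1 points above it.

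One sample decided whether Bcl2 passed. Without control base replicate 1 the difference between regions was -1.37 in controls (adjusted p = 0.0191, limma) and -0.90 over both genotypes (adjusted p = 0.00661, limma), with the lone basal control, at 9.42, assumed to vary like the other groups. In those fits 4.17% and 11.5% of all genes passed too. Without control base replicate 2 the values were -0.25 and -0.34 (log2).

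The other anti-apoptotic genes lay on the other side. Mcl1 was higher in the base by 0.23 ± 0.09 (log2, SE) over both genotypes, 0.17 ± 0.13 in controls and 0.29 ± 0.13 in the cKO. limma's p for Mcl1 over both genotypes was 0.0382 unadjusted and 0.257 adjusted. All 6 of its probe sets had a higher mean in the base in each genotype, with 5 of 6 free of overlap in the cKO, where 23.2% of all genes were, and 1 of 6 in controls, where 17% were. Bcl2l1 was higher in the base by 0.22 ± 0.11 (log2, SE) over both genotypes (unadjusted p = 0.0691, adjusted p = 0.333, limma). It did not overlap between regions (10.79 to 10.98 in the apex, 11.01 to 11.32 in the base), as did 5.96% of all genes with a higher base, and it was higher in the base of all 4 presumed mice, as were 16% of all genes.

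Over both genotypes limma called 0 of 8 members between the regions, and 1.19% of all genes. At an unadjusted p under 0.05 it gave 2 of 8 members, Bcl2 and Mcl1, and 17.2% of all genes. In controls it called 0 members and 0% of all genes, with 1 member (Bcl2) and 7.52% at an unadjusted p under 0.05. In the cKO it called 0 members and 0.0832% of all genes, with 0 members and 11.3% at an unadjusted p under 0.05. The members' shares do not stand out from these.

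None of the BH3-only genes or Bak1, each as read from its brightest probe set, reached an unadjusted p under 0.05 between the regions in limma. The Bcl2l11 probe set 1456006_at did so in controls (-1.22 ± 0.41, log2, SE; unadjusted p = 0.0184, adjusted p = 0.654, limma over all probe sets). Over both genotypes base minus apex was 0.00 ± 0.17 (log2, SE) for Bcl2l11, with -0.28 ± 0.24 in controls and 0.28 ± 0.24 in the cKO. Bid gave 0.13 ± 0.19, Bad 0.19 ± 0.23, Bbc3 -0.21 ± 0.27 and Bak1 -0.12 ± 0.28, the last pair turning to 0.03 and 0.13 with quantile normalization. As deposited, Bbc3 was lower in the base of all 4 presumed mice, as were 17% of all genes, with base minus apex from -0.40 to -0.03.

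Cell markers differed between the same regions. All 13 tested hair cell markers were lower in the base over both genotypes, 6 of them past limma's adjusted threshold, and all 8 tested neuron and Schwann cell markers were lower, 0 of them past it. The summed signal of 8 neuron and Schwann cell markers was 75895 to 91123 in the apical samples and 54436 to 95094 in the basal ones, the lowest in control base replicate 2, which was also the lowest in Bcl2. The hair cell sum was lowest in that sample too, at 7268, close to the 7396 of cKO base replicate 2. Of the stria vascularis markers 7 of 8 tested were higher in the base, 0 of them past limma's adjusted threshold. Of 10 tested supporting cell markers 8 were lower in the base and 2 higher, with 4 of the 10 past that threshold. All 4 tested endothelial markers were higher in the base, 1 of them past it. The part of these cells in the Bcl2, Mcl1 and Bcl2l1 differences was not tested.

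Genes whose pattern over the 8 samples was most like a member's were found by Pearson correlation of log2 signals among 13220 other tested genes. The values are a description, since the samples share arrays, mice and tissue makeup, and the best of so many genes lies high by its choice. For Bcl2 they were Dtwd1 (0.995), Zmat4 (0.991) and Cacna1a, a neuronal calcium channel (0.99). For Mcl1 they were Apbb2 (0.986), Ell (0.976) and Card6 (0.976). For Bcl2l11 they were Cox6a2 (0.955), Sf3a2 (0.95) and Zfp622 (0.945).

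The wider death pathway was read from 78 other genes in 5 lists, of which 69 had a probe set and 63 were tested. limma called 0 of 63 in each of the 7 comparisons. At an unadjusted p under 0.05, 1 was higher and 0 lower in the cKO in the apex, 1.59% of the 63 beside 2.19% of all genes. In the base 2 were higher and 0 lower, 3.17% beside 3.12% of all genes, so these counts do not stand out. Between the regions over both genotypes 11 were higher and 4 lower in the base, 23.8% of the 63 beside 17.2% of all genes.

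Between genotypes the genes with an unadjusted p under 0.05 were few. Atf3, a stress-induced transcription factor, was at 7.03 and 6.58 in control base and 9.29 and 7.41 in cKO base (1.55 ± 0.56, log2, SE; adjusted p = 1, limma). Cdkn1a, the p53 target that encodes the cell cycle inhibitor p21, was at 13.14 and 13.17 in control base and 13.49 and 13.39 in cKO base (0.29 ± 0.10; adjusted p = 1, limma). In the apex Pim1, a survival kinase that phosphorylates Bad, was at 8.80 and 8.52 in controls and 9.11 and 9.13 in the cKO (0.46 ± 0.19; adjusted p = 1, limma). Over 12 tested genes of the list that holds p53 and its targets, the median difference was 0.00 in the apex and 0.11 in the base, beside 0.00 over all genes in each.

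The remaining Bcl2 relatives held no gene at an unadjusted p under 0.05 between genotypes (0 of 9 tested, limma), with medians over 9 tested genes of 0.11 in the apex and 0.01 in the base. Between the regions over both genotypes Hrk, a BH3-only gene of neurons, was 1.57-fold lower in the base (-0.65 ± 0.20, log2, SE; adjusted p = 0.167, limma). Bcl2l2, the anti-apoptotic Bcl-w, was higher in the base by 0.27 on the log2 scale (SE 0.11; adjusted p = 0.255). The mitochondrial partners and caspases, which carry out death once the membrane opens, had a median of -0.08 over 16 tested genes beside -0.02 over all genes, with 4 higher and 12 lower. The fusion factor Opa1 was their one gene at an unadjusted p under 0.05 (-0.32 ± 0.13, log2, SE; adjusted p = 0.271, limma).

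Of 8 tested death receptors and adaptors 7 were higher in the base over both genotypes and 1 lower, where 47.4% of all genes were higher. At an unadjusted p under 0.05 there were 3 higher and 1 lower, where 17.2% of all genes reached it, and limma called 0. The caspase-8 inhibitor Cflar was at 9.38 to 9.85 in the apical samples and 9.96 to 10.34 in the basal ones (0.47 ± 0.15, log2, SE; adjusted p = 0.178, limma). The death receptor gene Tnfrsf21 was higher by 0.39 ± 0.14 (log2, SE; adjusted p = 0.227, limma) and Ripk3, the kinase of necroptosis, by 0.52 ± 0.20 (adjusted p = 0.255). The member of this list that was lower is Fas, a death receptor gene that is also in the p53 list (-0.63 ± 0.27; adjusted p = 0.282, limma). In the p53 list Cdkn1a had a smaller p than Fas. It was higher in the base by 0.28 ± 0.07 (log2, SE; unadjusted p = 0.0059, adjusted p = 0.123, limma). Of the regulators of Bcl2 proteins, Stat5b, a transcription factor for survival genes, had the smallest p. It was at 9.71 to 9.84 in the apex and 10.20 to 10.45 in the base (0.57 ± 0.11, log2, SE; unadjusted p = 0.00134, adjusted p = 0.0651, limma). Next came Bag3, a cochaperone that binds Bcl2 (0.44 ± 0.12; adjusted p = 0.138), and Akt1, a kinase that phosphorylates Bad (0.55 ± 0.15; adjusted p = 0.139).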

How the data were processed

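RNA from mirVana columns, 75 to 125 ng, went through 2-cycle Affymetrix labelling, per the labels' protocols. What the authors deposited is a linear intensity (signal) for every probe set, scaled so that each array's mean without the top and bottom 2% is 500. MAS5 and affy 1.26 appear in the submitters' processing notes, without the role of each. Detection calls were not used.

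Of 45101 probe sets 64 were array controls and left out. Of the rest 34945 had 1 gene in the supplied annotation, 932 several and 9160 none listed. A gene was read from its probe set of highest mean log2 value, and tested if that mean reached the 40th percentile (5.274, a signal of 38.71), which left 13221 genes. limma 3.58.1 (R 4.3.3) was fitted to 4 group means with an intensity trend (4 residual and 3.46 prior degrees of freedom), and for the genotype over both regions to 1 mean per presumed mouse (2 and 3.1). Tests were two-sided at an adjusted p of 0.05. Confidence intervals use the moderated standard error. The procedure was tested on simulated data.

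The labels tie a sample to 1 mouse; deviations from group means correlated between apex and base of 1 number at 0.339 in controls and 0.0683 in the cKO. The number of arrays limits the precision. All tested members were named by rule. So were at most 3 genes of each pathway list in a comparison (Fas through the p53 list) and 3 like genes for 3 members. Not every probe set of the members is named. Xist was added after its values were seen. Members and lists were chosen with earlier results of these data known. Alternatives covered the filter, pseudocount, scaling, probe sets, variance model, blocks, groups fitted and single samples.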

Additional observations from a re-analysis of the deposited data

How the results depend on the processing

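Over all samples limma called 0 of the members that each alternative tested, where the 60th percentile filter left out Bak1, Bid and Bbc3 and the mean of probe sets Bak1 and Bid. With 1 sample left out the number called was 0 to 1 between regions in controls and 0 to 1 over both genotypes (Bcl2 without control base replicate 1, -1.369 and -0.898), and 0 in the other comparisons. Of 605 values under alternatives on all samples 20 had the other sign, 3 of them where the difference had exceeded its standard error, and of 448 values with 1 sample left out 52 and 1. Those 3 were Bcl2l1 with the mean of its probe sets, 2 of which lie under the filter: -0.583 between regions of controls, -0.036 between genotypes in the base and -0.717 over both regions. It gave -1.398 in the apex, where the difference had been smaller than its error. The other was Bcl2 between genotypes in the base, -0.21 to 0.91 with 1 sample left out. With quantile normalization the base minus apex values of Bbc3 and Bak1 over both genotypes became 0.03 and 0.13.

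With a replicate block for the presumed mouse Bcl2 gave -0.62 ± 0.19 (log2, SE) between regions (adjusted p = 0.148, limma), and blocks changed no call of a member. The genes called between regions over both genotypes, 157, became 255 with that block, 527 with a random one, 70 without the intensity trend and 98 with the mean of probe sets, and 0 to 1518 with 1 sample left out. The 11 called in the cKO became 449 with the compared groups alone, 81 with a random block, 6 with the mean of probe sets, and 0 without a filter, under either scaling, without the trend or with the mouse block.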
